A study of Homo sapiens with 9 samples.

Results

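The plasminogen activators PLAU and PLAT, the urokinase receptor PLAUR and 6 serpins (SERPINE2, SERPINB2, SERPINB6, SERPINB8, SERPINB9 and SERPINH1) were described by RNA-seq in human glioblastoma xenografts. These 9 genes were taken by symbol from the 18364 genes of the deposited table, and all 9 were present. LN229, a long-established cell line from a human glioblastoma, was grown as intracranial tumours in nude mice, which lack T cells, and the tumours were taken at the end stage of disease. In 6 tumours the cells carried TAZ-4SA, a mutant of the transcriptional co-activator TAZ that escapes inhibitory phosphorylation by the Hippo kinases, and in 3 tumours they carried the empty vector (EV). The TAZ-4SA tumours came from 1 engineered line, LN229-4SA, and the EV tumours from another, LN229-EV, and the labels name neither clones nor the animal behind each tumour. The p-values therefore measure the spread between these tumours, and a difference between the lines cannot be told apart from an effect of TAZ-4SA.

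Plasminogen activators are serine proteases that convert the circulating zymogen plasminogen into plasmin, which degrades fibrin and matrix proteins and activates other proteases. Urokinase, the product of PLAU, works mainly while bound to its membrane-anchored receptor PLAUR, whereas tissue-type activator, the product of PLAT, works on fibrin and is also known in brain for actions at synapses. Serpins are suicide inhibitors that trap a protease through an exposed reactive loop. In glioblastoma the urokinase system is known for its part in invasion.

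Levels were given by the authors as log2 CPM, where CPM is the reads of a gene scaled to a common library size, and whole reads and CPM were recovered from them. The TAZ-4SA libraries held 3144861 to 31468135 reads and the EV libraries 17314672 to 21576264. The number of genes without a read was 2990 to 7365 in TAZ-4SA and 505 to 622 in EV. Of the genes that averaged 10 to 20 CPM over a group's remaining tumours, 0.849% to 27.9% had no read in a given TAZ-4SA tumour and 0% in a given EV tumour, so a value of 0 at low levels carries less weight in TAZ-4SA. WWTR1, the gene of TAZ, stood at 218 to 449 CPM in TAZ-4SA and 116 to 123 CPM in EV (exact two-sided permutation test over 84 arrangements, p = 0.02381, the smallest they can give). The 9 glioblastoma markers checked summed to 2434 to 3831 CPM in TAZ-4SA and 3377 to 3740 CPM in EV, mostly VIM. Of these EGFR, CD44 and SOX9 were higher in TAZ-4SA, NES and S100B lower and 4 not called by the test given next, and GFAP, OLIG2 and SOX2 had 0 reads in 1, 3 and 2 of the TAZ-4SA tumours.

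The receptor rose and the tissue-type activator, the inhibitor SERPINE2 and the collagen chaperone SERPINH1 fell, while urokinase itself had no read in TAZ-4SA and few in EV. The limma test with Benjamini-Hochberg adjustment over 15578 genes was applied to 8 of the 9 genes, and PLAU was below its minimum of 1 CPM. At an adjusted p of 0.05, 1 of the 8 was higher in TAZ-4SA and 4 were lower, where 9.02% of all genes tested were higher, 13.3% lower and 22.4% either. SERPINB9, 1 of the 4 lower, averaged 2.39 CPM in EV and 0.140 CPM in TAZ-4SA and so passed the minimum only through EV. Its call and its separation between the groups therefore lend no support of their own. SERPINB2, SERPINB6 and SERPINB8 were not called. The median log2 difference (TAZ-4SA minus EV) was -1.33 over the 8 genes and -0.85 over all genes tested, and after quantile normalization the median over all genes was -0.053. That scaling turned the split over all genes from 1405 higher and 2079 lower to 2042 higher and 1626 lower. The groups did not overlap for the 5 called genes, a separation seen upwards in 10.8% and downwards in 21.3% of all genes tested. They did not overlap for PLAU either, which was not among the genes tested and had 1 read in EV tumour 2 against 0 in TAZ-4SA.

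**Figure D1:**
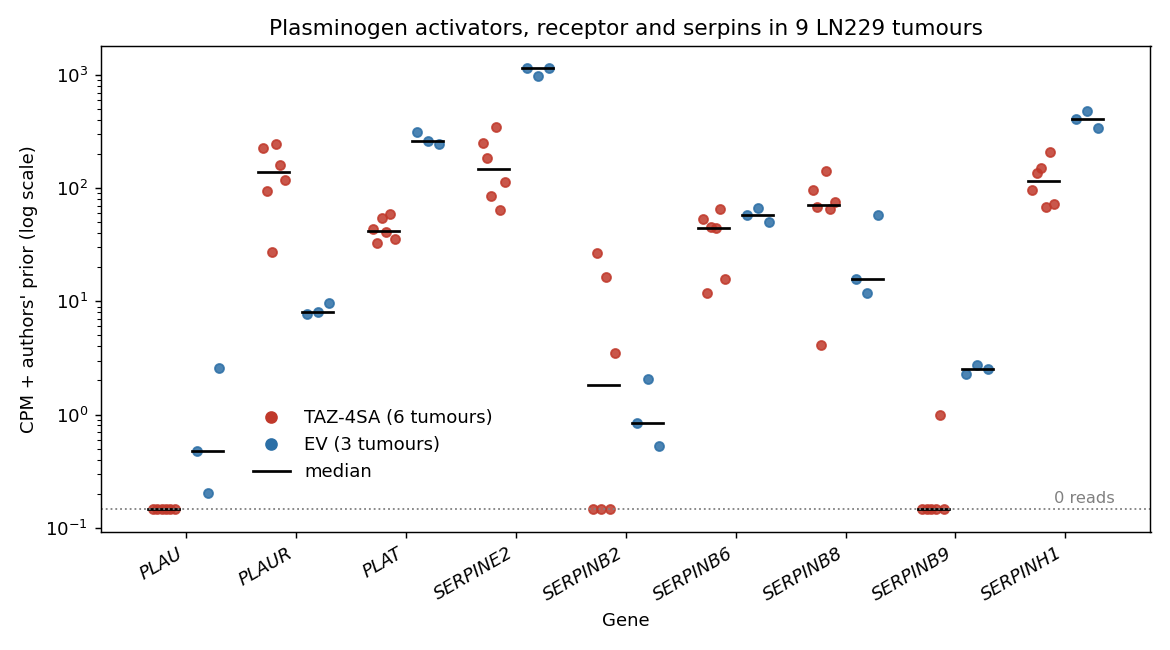
CPM plus the authors' prior on a log scale for each of the 9 genes, with one point per tumour, red for TAZ-4SA (6 tumours), blue for EV (3 tumours), and a bar at each group's median. The dotted line marks 0 reads. PLAUR is higher in every TAZ-4SA tumour, PLAT, SERPINE2 and SERPINH1 are lower in every one, and all 6 PLAU values of TAZ-4SA lie at 0 reads.

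PLAU (Entrez gene 5328, protein-coding, chromosome 10 from 73908832 to 73917494, GRCh38) encodes urokinase. It had 7, 1 and 38 reads in EV tumours 1, 2 and 3 and 0 reads in each of the 6 TAZ-4SA tumours. In CPM the EV tumours stood at 0.328, 0.0581 and 2.45, so nearly all of the signal came from EV tumour 3. Against a floor of 3 reads per library, a mean of 0.419 CPM in TAZ-4SA, PLAU was at least 2.26-fold lower, a bound that covers counting error only. Without EV tumour 3 the EV mean was 0.193 CPM, itself under that floor, and no fold can be given. With the filter on low values removed, limma called PLAU lower (adjusted p = 0.0423), where 18.4% of the 18364 genes were called lower. The lncRNA gene C10orf55 overlaps PLAU, and this library chemistry does not mark the strand of a read.

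PLAUR (Entrez gene 5329, chromosome 19 from 43646095 to 43670169) encodes the glycolipid-anchored urokinase receptor. Its level was 7.64, 7.91 and 9.54 CPM in EV tumours 1, 2 and 3. In TAZ-4SA the lowest value was 27.2 CPM in tumour 3, the median 138 CPM and the highest 246 CPM in tumour 4. All TAZ-4SA tumours lay above all EV tumours, and tumour 3 stood closest to the EV range. The mean rose from 8.36 ± 1.03 CPM (SD, n = 3) to 145 ± 82.7 CPM (SD, n = 6), a log2 difference of 3.80 ± 0.60 (SE; limma adjusted p = 0.001059). The call was lost in limma-voom on the recovered reads (3.86, adjusted p = 0.07635), where 8.29% of all genes were higher. Under quantile normalization the log2 difference was 4.98.

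Cells of the myeloid lineage also express PLAUR, and 1 of the 4 myeloid markers tested, the lysosomal gene CD68, rose with it, from 16.4 ± 5.51 to 88.2 ± 38.2 CPM. Summed over the 6 myeloid markers in the table, the level was 54.7 to 142 CPM in TAZ-4SA and 16.1 to 25.6 CPM in EV. This sum was mostly CD68, which alone stood at 32.9 to 142 CPM in TAZ-4SA and 12.6 to 22.7 CPM in EV. CSF1R stood at 1.02 ± 0.231 CPM in EV and 5.67 ± 6.53 CPM in TAZ-4SA, with no read in 2 tumours, and ITGAM at 2.26 ± 0.619 and 5.40 ± 9.08 CPM, with no read in 4, and neither was called. PTPRC had 0 reads in 5 of 6 TAZ-4SA tumours and 123 reads (12.4 CPM) in tumour 2. TYROBP also had 0 reads in 5 of 6, and each of these genes had at most 1 read in an EV tumour. P2RY12 was at 0 in all 6 and at 1 to 3 reads in EV. In bulk tumours fewer cells of a type and less RNA per cell cannot be told apart. Host cells in these xenografts are mouse cells, while the genes are human, and whether mouse reads were removed is not given. Reads of these markers, and of the markers of other cell types below, can therefore not be assigned to host cells. The part of other cells in the difference of PLAUR was not tested.

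The 250 bases before the RefSeq transcript start (GRCh38.p14) were searched on both strands in 8 of the 9 genes, PLAT not among them, for the AP-1 motif TGANTCA and the TEAD core GGAATG. AP-1 is the dimer of FOS and JUN family proteins through which many extracellular signals act on urokinase system genes, and TEAD proteins carry TAZ to DNA. The start used lay inside the outer gene coordinates given here for PLAU, SERPINE2 and SERPINB6, by 1778, 7808 and 226 bases, so for these genes other starts were not searched. All 250 bases of the PLAU, PLAUR, SERPINB6 and SERPINB8 windows lie in exons annotated by GENCODE. So do 197 bases of the SERPINH1 window and 5 of the SERPINB2 window, and none of those of SERPINE2 and SERPINB9. The AP-1 letters were found in PLAUR, SERPINB2 and SERPINB8, that is in 3 genes, and in 6.57% of 35116 promoters of the same length. The TEAD letters were found in none of the 8, and in 11.9% of all promoters, which says only that these letters are not in these windows. Of the other motifs searched, the GC box GGGCGG was found in SERPINE2, SERPINB6 and SERPINB9 and in 42.6% of all promoters, the TATA box TATAAA in SERPINB2, SERPINB8 and SERPINB9 and in 10.7%, and the hypoxia response core ACGTG in SERPINE2, SERPINB6 and SERPINB8 and in 18.5%. The stretches with an AP-1 match are shown 5′ to 3′ on the strand of the gene, with the match in capitals.
PLAUR, chr19:43670337-43670366, minus strand, 186 bases before the start: tcacaactccaTGAGTCAgggccgagccag
SERPINB2, chr18:63887592-63887621, plus strand, 102 bases before the start: gagtaaaatgtTGAATCActcaaaggacac
SERPINB8, chr18:63969885-63969914, plus strand, 185 bases before the start: ggagtcaaacgTGAATCAacggtgaaaaaa
SERPINB8, chr18:63970042-63970071, plus strand, 28 bases before the start: tcgaacggttcTGAGTCAtctgccggaagc
PLAUR and the nearer SERPINB8 match carry the same 7 letters, and SERPINB2 and the farther SERPINB8 match share the other form. Of the 3 genes PLAUR alone was called higher. A match is a description of sequence, and binding was not measured.

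PLAT (Entrez gene 5327, chromosome 8 from 42174718 to 42207565) encodes tissue-type plasminogen activator. The EV tumours held 312, 263 and 245 CPM, and the TAZ-4SA tumours had a lowest value of 32.8, a median of 42.0 and a highest of 59.3 CPM. Every TAZ-4SA value lay far under the lowest EV value, and the 6 were close together. Their SD was 0.33 on the log2 CPM scale, where the median SD of 3072 genes within 1.5-fold of the same level was 0.87. The mean fell from 273 ± 34.6 CPM (SD, n = 3) to 44.3 ± 10.4 CPM (SD, n = 6), with a log2 difference of -2.64 ± 0.30 (SE; limma adjusted p = 0.0001137). PLAT was called lower under each of the 22 alternatives run, with log2 differences from -2.79 to -2.54. Endothelial cells and neurons also express PLAT. The 6 endothelial markers in the table summed to 10.3 to 15.1 CPM in EV and 0 to 13.2 CPM in TAZ-4SA, and VWF, the 1 of them that could be tested, was not called (limma adjusted p = 0.0948). The 7 neuronal markers summed to 29.7 to 133 CPM in EV and 84.5 to 1296 CPM in TAZ-4SA, with SYT1 higher. The part of these cells in the difference of PLAT was not tested.

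Because both genes were read from the same library, the ratio of PLAUR to PLAT does not depend on scaling between libraries. Per kilobase of transcript, the ratio was 0.0420 to 0.0668 in the EV tumours and 0.866 to 10.3 in the TAZ-4SA tumours. The receptor was thus under the activator in each EV tumour and above it in 5 of 6 TAZ-4SA tumours, with tumour 3 the exception.

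SERPINE2 (Entrez gene 5270, chromosome 2 from 223975045 to 224039286) encodes protease nexin-1, an extracellular inhibitor of thrombin, urokinase and tissue-type activator that is abundant in brain. It was the most abundant of the 9 genes in EV, at 1152, 983 and 1147 CPM in tumours 1, 2 and 3. The TAZ-4SA tumours ranged from 64.1 CPM in tumour 5 through a median of 149 to 350 CPM in tumour 4. No TAZ-4SA tumour reached the EV range, but the 6 spread more than the EV tumours, with an SD of log2 CPM of 0.95 against 0.13. A wider spread in TAZ-4SA was general, as the median SD of genes within 1.5-fold of its level was 0.57 in TAZ-4SA and 0.17 in EV. The mean fell from 1094 ± 96.0 to 175 ± 110 CPM (n = 3 and 6), a log2 difference of -2.89 ± 0.47 (SE; limma adjusted p = 0.001336). The log2 difference was -2.50 without TAZ-4SA tumours 5 and 6, the shallowest libraries, and -3.16 without tumours 2, 3 and 4, those with the largest numbers of genes lacking reads.

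PLAT and SERPINE2, an activator and one of its inhibitors, were both lower. Their ratio per kilobase was 0.177 to 0.224 in EV and 0.0969 to 0.766 in TAZ-4SA, so the EV values lay inside the TAZ-4SA range. TAZ-4SA tumours 3 and 5 had the highest ratios, at 0.524 and 0.766, and these are the tumours in which SERPINE2 was lowest and PLAT highest.

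**Figure D2:**
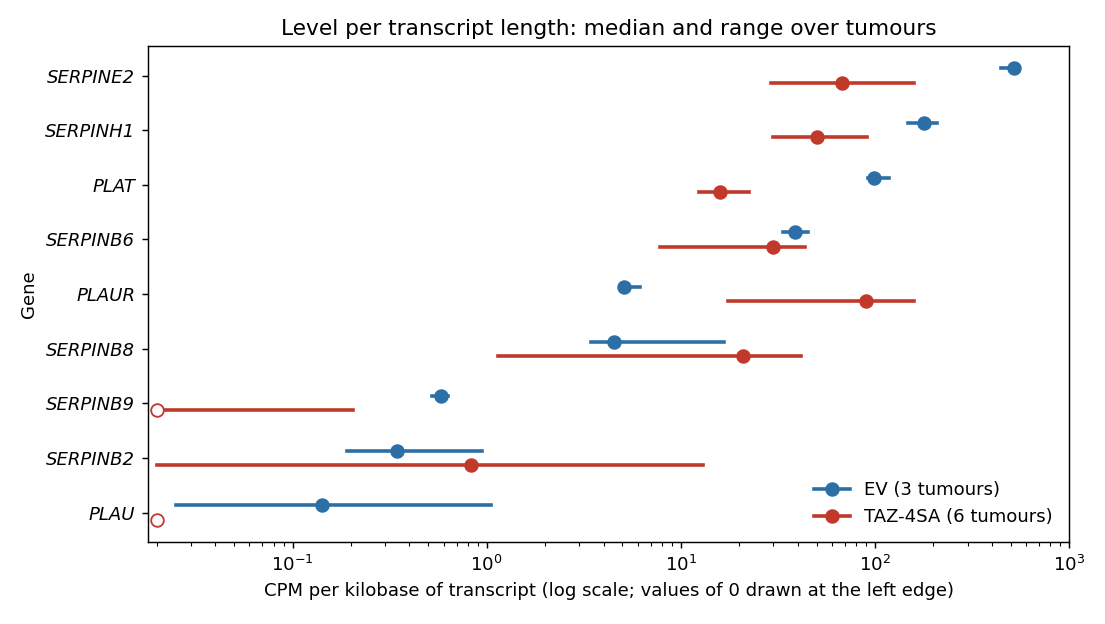
CPM per kilobase of transcript on a log scale for the 9 genes, ordered by their EV median. Points are medians and lines run from the lowest to the highest tumour, blue for EV and red for TAZ-4SA, and open points mark medians of 0. SERPINE2, SERPINH1 and PLAT lead in EV, while PLAUR, SERPINE2 and SERPINH1 lead in TAZ-4SA.

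Levels per kilobase put the genes in a clear order in EV. SERPINE2 led at 448 to 525 CPM per kilobase, followed by SERPINH1 at 147 to 208, PLAT at 92.2 to 118 and SERPINB6 at 33.7 to 45.0, with no overlap between neighbours. PLAUR at 4.93 to 6.16 and SERPINB8 at 3.44 to 16.8 overlapped, and so did SERPINB9, SERPINB2 and PLAU, whose highest value was 1.06. In TAZ-4SA the order by median was PLAUR, SERPINE2, SERPINH1, SERPINB6, SERPINB8 and PLAT, at 89.5, 67.9, 50.3, 29.9, 20.8 and 15.8 CPM per kilobase, followed by SERPINB2. Each of these 7 overlapped its neighbours in that order, but SERPINE2 and SERPINH1 lay above PLAT without overlap, at 29.2 to 159 and 29.9 to 90.6 against 12.4 to 22.4, and SERPINB2, at 0 to 13.1, lay below PLAUR, SERPINE2 and SERPINH1.

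SERPINH1 (Entrez gene 871, chromosome 11 from 75562253 to 75572783) encodes HSP47, a serpin that inhibits no protease and instead acts as a chaperone for procollagen in the endoplasmic reticulum. The EV tumours held 409, 478 and 339 CPM. The TAZ-4SA tumours ran from 68.6 CPM in tumour 4 through a median of 116 to 208 CPM in tumour 5. The groups did not overlap, and the mean fell from 409 ± 69.5 to 122 ± 53.8 CPM (n = 3 and 6), a log2 difference of -1.85 ± 0.37 (SE; limma adjusted p = 0.003912).

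The collagens that HSP47 folds did not share one direction. Of 15 chains tested, 5 were higher in TAZ-4SA, 2 lower and 8 not called, with a median log2 difference of 0.12. Over all genes tested 9.02% were higher and 13.3% lower, with a median of -0.85. COL1A1 rose from 113 ± 42.5 to 3206 ± 1264 CPM, COL8A1 from 70.5 ± 2.66 to 365 ± 117 and COL4A1 from 144 ± 12.2 to 409 ± 60.5, while COL11A1 fell from 723 ± 57.3 to 135 ± 53.9 CPM. COL1A2, the partner chain of COL1A1 in type I collagen, stood at 95.5 ± 26.2 CPM in EV and 123 ± 76.3 CPM in TAZ-4SA and was not called (limma adjusted p = 0.8898). COL2A1, the cartilage collagen chain, fell from 45.8 ± 6.84 to 0.0526 ± 0.112 CPM, and 4 TAZ-4SA tumours had no read of it. Among 22 enzymes and chaperones of collagen folding, 2 were higher, 7 lower and 13 not called. Their median log2 difference was -0.053, above the -0.85 over all genes tested. The count lower was 3, 2 and 3 without EV replicate 1, 2 and 3. The lysyl hydroxylase gene PLOD2 rose from 24.8 ± 3.05 to 388 ± 166 CPM, whereas its relatives PLOD1 and PLOD3 fell, with log2 differences of -2.17 and -2.38. PLOD3 was not called when any 1 EV tumour was left out (limma adjusted p = 0.0530 to 0.0627). PPIB, a prolyl isomerase that works with HSP47, fell from 336 ± 24.6 to 75.4 ± 29.9 CPM. FKBP10, another partner of HSP47, had a log2 difference of -1.68 (limma adjusted p = 0.02267) and was not called when EV replicate 1, 2 or 3 or TAZ-4SA replicate 6 was left out (adjusted p = 0.0526 to 0.0814). Markers of pericytes and fibroblasts, which make collagen, summed to 500 to 630 CPM in EV and 270 to 596 CPM in TAZ-4SA. Of the 7, LUM was higher and KCNJ8 lower. The sum includes COL3A1, also 1 of the 15 chains above, at 315 to 481 CPM in EV and 39.3 to 369 CPM in TAZ-4SA. The part of pericytes and fibroblasts in these differences was not tested.

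The clade B serpins, which act mostly inside cells, differed from each other. SERPINB9 and SERPINB6 lie on chromosome 6 (2887270 to 2903309 and 2948159 to 2971793), and SERPINB2 and SERPINB8 on chromosome 18 (63887705 to 63903888 and 63970081 to 64019779).

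SERPINB9 (Entrez gene 5272), the inhibitor of granzyme B, had 46, 45 and 37 reads in the EV tumours, or 2.15, 2.62 and 2.39 CPM. In TAZ-4SA it had 3 reads in tumour 5 and 0 in the other 5 tumours. The depth-adjusted ratio of EV to TAZ-4SA reads was 62.8, with a 95% interval of 21.0 to 309 for counting error only. That ratio pools reads and so weights the deep libraries, and the ratio of the group means, 2.39 ± 0.231 and 0.140 ± 0.343 CPM, was 17.0. Against the floor of 3 reads per library the fold was 5.70. The limma log2 difference was -3.66 ± 0.99 (SE; adjusted p = 0.02027), at a mean of 1.03 CPM (prior included) that barely passed the filter, and only through EV. The gene fell below the filter when any 1 EV tumour was left out, and it was not called after quantile normalization (adjusted p = 0.7907) or without TAZ-4SA tumours 2, 3 and 4 (adjusted p = 0.06068). An edgeR test on the recovered reads, whose values are left out here, did not call it either. The antisense gene SERPINB9-AS1 overlaps SERPINB9 and had 113 reads in TAZ-4SA tumour 3, 2 in EV tumour 1 and 0 in the other 7.

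SERPINB6 (Entrez gene 5269), an inhibitor of cathepsin G, held 57.6, 67.3 and 50.3 CPM in EV. In TAZ-4SA it ran from 11.7 CPM in tumour 2 through a median of 44.7 to 65.2 CPM in tumour 5. The groups overlapped, with tumours 2 and 6 set apart below the rest, and the log2 difference of -0.81 ± 0.56 (SE) was not called (limma adjusted p = 0.3077).

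SERPINB8 (Entrez gene 5271), an inhibitor of furin, stood at 15.6 and 11.8 CPM in EV tumours 1 and 2 and at 57.6 CPM in EV tumour 3. In TAZ-4SA the lowest value was 3.93 CPM in tumour 3 and the next lowest 64.9 CPM, with a median of 71.4 and a highest value of 142 CPM in tumour 4. Thus 5 of 6 TAZ-4SA tumours lay above all EV tumours and 1 lay below them. The log2 difference of 1.22 ± 0.96 (SE) was not called (limma adjusted p = 0.3707), and without TAZ-4SA tumour 3 it was 1.95 and called (adjusted p = 0.01949). The SD of log2 CPM in EV was 1.21, larger than in 99.5% of the 3006 genes within 1.5-fold of its EV level. FURIN, the target protease, was 235 ± 90.2 CPM in EV and 93.2 ± 41.2 CPM in TAZ-4SA (log2 difference -1.38, limma adjusted p = 0.02548), a call lost when any 1 EV tumour or TAZ-4SA replicate 1 or 4 was left out (adjusted p = 0.0506 to 0.147).

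SERPINB2 (Entrez gene 5055) encodes plasminogen activator inhibitor type 2, a product known from macrophages and keratinocytes. The EV tumours had 0.703, 1.92 and 0.387 CPM. Among the TAZ-4SA tumours, 1, 3 and 5 had 0 reads, while tumours 6, 4 and 2 had 3.36, 16.1 and 26.5 CPM. The TAZ-4SA tumours therefore lay on both sides of the EV tumours, and the log2 difference of 0.40 ± 1.90 (SE) changed sign in 7 of 21 alternatives (limma adjusted p = 0.8927). Tumour 2, with the highest SERPINB2, was also the tumour with the most genes at 0 reads, and the 3 tumours without SERPINB2 reads included both tumour 5, with the fewest genes at 0 reads, and tumour 3, with 6790.

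**Figure D3:**
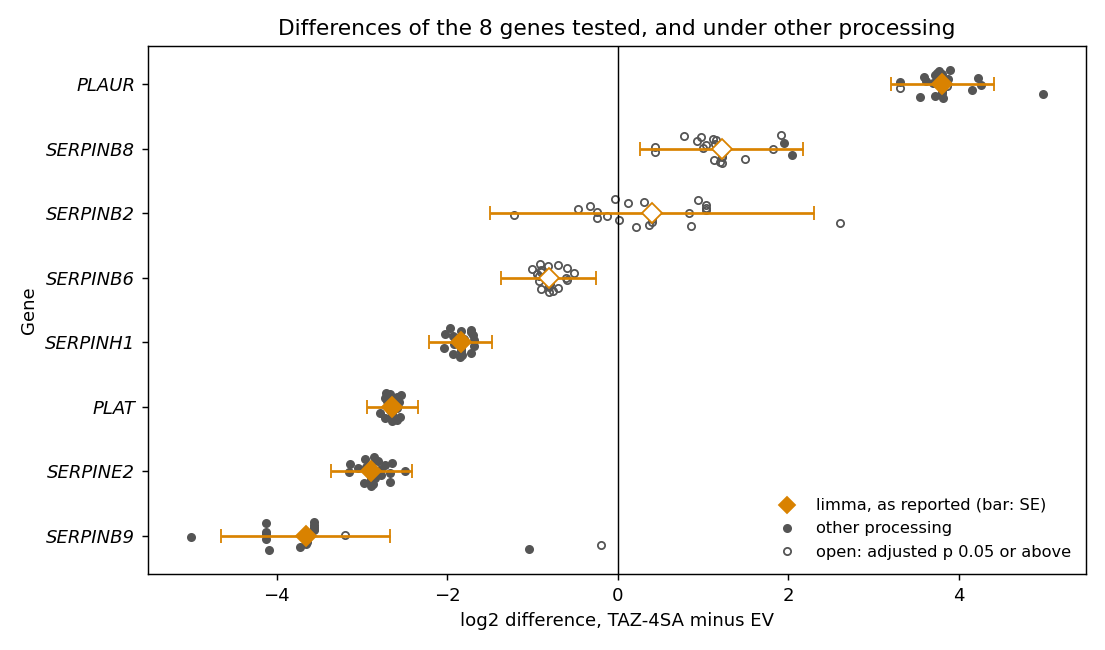
log2 difference between TAZ-4SA and EV for the 8 genes tested. Diamonds are the limma values with their SE (open where the adjusted p is 0.05 or above) and circles are the values under other processing, open where not called. PLAT, SERPINE2 and SERPINH1 stay between -3.16 and -1.69 and are filled throughout, while SERPINB2 lies on both sides of 0.

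Among the TAZ-4SA tumours several of these genes were high or low in the same tumours. PLAUR, SERPINE2 and SERPINB8 were each highest in tumour 4 and second highest in tumour 1, and SERPINH1 was lowest in tumour 4. PLAUR and SERPINB8 were lowest in tumour 3, at -2.33 and -4.18 log2 units from the median of the 6 tumours. SERPINH1, PLAT and SERPINB6 were highest in tumour 5, where SERPINE2 was lowest. Tumours 4 and 1 were also the deepest TAZ-4SA libraries, with 31468135 and 19224552 reads, and tumour 5 held 3299325. Tumour 3, where PLAUR and SERPINB8 were lowest, came next in depth after tumour 1, with 16030692 reads. Tumours 2 and 6 held 9151541 and 3144861 reads. The part of depth in this pattern was not tested.

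**Figure D4:**
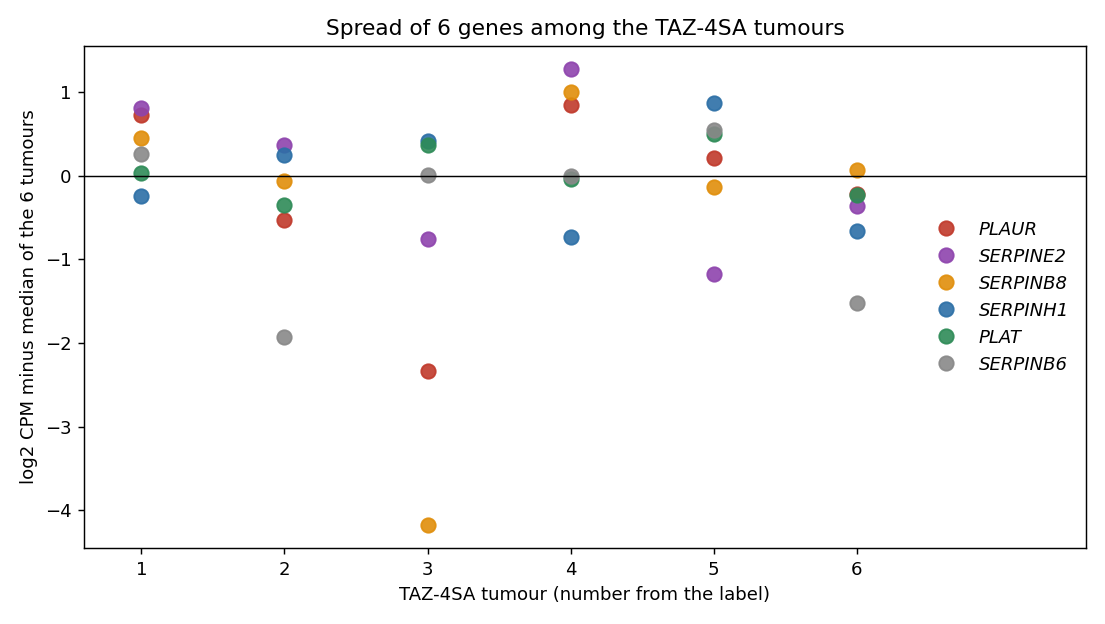
log2 CPM of 6 genes in each TAZ-4SA tumour, relative to each gene's median over the 6 tumours. In tumours 1 and 4 PLAUR, SERPINE2 and SERPINB8 lie above their medians and SERPINH1 lies below, and in tumour 3 PLAUR and SERPINB8 are the lowest points.

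Of 36 further genes of the plasminogen system in the table, 30 were tested, of which 6 were higher, 8 lower and 16 not called. Their median log2 difference was -0.95, beside -0.85 over all genes tested, of which 9.02% were higher and 13.3% lower. Leaving out EV replicate 1 or 2 brought the number lower to 4. ANXA2 and S100A10 encode the heterotetramer that holds plasminogen and tissue-type activator at the cell surface, and both rose. ANXA2 went from 464 ± 73.5 to 2826 ± 380 CPM (log2 difference 2.61, limma adjusted p = 5.07e-06) and S100A10 from 55.3 ± 14.5 to 725 ± 404 CPM (log2 difference 3.54). Neither of the other plasminogen receptors listed was called. PLGRKT stood at 12.7 CPM in both groups, with an SD of 3.77 in EV and 11.5 in TAZ-4SA, and ENO1 at 2721 ± 217 CPM in EV and 1489 ± 710 CPM in TAZ-4SA (limma adjusted p = 0.05582). ENO1 was called lower in 6 of 22 alternatives, which were median-of-ratios scaling, quantile normalization, array weights, limma-voom and leaving out TAZ-4SA replicate 3 or tumours 2, 3 and 4 (adjusted p = 0.000469 to 0.0323).

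Partners of the urokinase receptor at the cell surface went both ways. The integrin subunit genes ITGB1, ITGA3 and ITGAV rose, ITGB1 from 86.8 ± 7.72 to 419 ± 174 CPM, while ITGB3 fell from 148 ± 52.0 to 21.1 ± 12.5 CPM. LRP1, the endocytic receptor that clears activator and serpin complexes, stood at 302 ± 23.9 CPM in EV and 520 ± 304 CPM in TAZ-4SA and was not called (limma adjusted p = 0.2916). Its intracellular chaperone LRPAP1 fell from 468 ± 45.3 to 49.8 ± 18.6 CPM, and MRC2, a collagen receptor that associates with PLAUR, had a log2 difference of -2.15, with groups that overlapped. Of the plasmin inhibitors, A2M fell from 1294 ± 261 CPM in EV to a highest value of 42.2 CPM in TAZ-4SA, where 3 tumours had no read, and SERPINF2 had 0.669 ± 0.244 CPM in EV and 0 reads in TAZ-4SA, too low to be tested. The membrane protease gene MMP14 was not called (305 ± 39.9 and 246 ± 101 CPM in EV and TAZ-4SA). CLEC3B, whose product binds plasminogen, had 3.07 ± 0.685 CPM in EV and 0 reads in TAZ-4SA. Against the floor it was at least 7.34-fold lower, a bound that covers counting error only. It passed the minimum of 1 CPM through EV alone, so its call, 1 of the 8 lower, lends no support of its own. CLEC3B was not called after quantile normalization (limma adjusted p = 0.369).

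Of 17 further serpins present, 11 were tested, of which 2 were higher, 4 lower and 5 not called, with a median log2 difference of -2.58. Over all genes tested 9.02% were higher and 13.3% lower, with a median of -0.85. SERPINB7, which lies on chromosome 18 from 63753057 to 63805370 near SERPINB2 and SERPINB8, rose from 1.91 ± 1.27 to 96.4 ± 40.7 CPM, whereas SERPINB5 on the same chromosome (63476958 to 63505085) was not called (0.512 ± 0.0562 and 3.59 ± 6.53 CPM). The lower ones encode secreted serpins. SERPINA3, an inhibitor of cathepsin G and chymotrypsin, fell from 2368 ± 774 to 42.5 ± 36.2 CPM, SERPINF1, which encodes an anti-angiogenic factor, from 255 ± 28.8 to 3.11 ± 4.71 CPM, and SERPINA5, the protein C inhibitor, from 222 ± 46.2 to 7.12 ± 8.67 CPM. SERPINI1, the neuronal inhibitor of tissue-type activator, fell from 5.83 ± 1.18 to 0.187 ± 0.457 CPM, and 5 TAZ-4SA tumours had no read of it. It passed the minimum of 1 CPM through EV alone. Leaving out EV replicate 1 ended its call (limma adjusted p = 0.0536), and so did leaving out EV replicate 2 (adjusted p = 0.0570). SERPINF1 had 0 reads in 3 TAZ-4SA tumours.

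Of the proteases that these serpins inhibit, 3 of the 7 in the table were tested. PLAT and FURIN were lower and CASP1 was not called, and GZMB, the target of SERPINB9, had 0 reads in all 9 tumours. In the family of PLAUR, small proteins built on the same LY6 fold, 9 genes were tested, of which 1 was higher, 2 lower and 6 not called. The median log2 difference was -1.49, beside -0.85 over all genes tested, of which 9.02% were higher and 13.3% lower. CD59, a complement inhibitor, fell from 334 ± 14.4 to 121 ± 29.8 CPM, and LYPD6 rose from 5.33 ± 1.83 to 28.8 ± 9.14 CPM, a call lost when any 1 EV tumour was left out (limma adjusted p = 0.0727 to 0.0913). LYPD3 was also lower (log2 difference -4.14), with 0 reads in 5 TAZ-4SA tumours and 3.06 CPM in tumour 6, so that the groups overlapped. With means of 4.46 CPM in EV and 0.509 CPM in TAZ-4SA, LYPD3 passed the minimum of 1 CPM only through EV. Its call was lost when any 1 EV tumour or TAZ-4SA replicate 1 or 4 was left out (limma adjusted p = 0.0519 to 0.136).

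Transcription factors known to act on PLAU and PLAUR were described from a list of 27 genes that includes WWTR1 itself. Of these 10 were higher, 2 lower and 15 not called, with a median log2 difference of 0.50. Over all genes tested 9.02% were higher and 13.3% lower, with a median of -0.85. With tumours 1 to 3 of each group only, 6 of the list were higher. The AP-1 subunit genes FOSL1, FOSL2 and JUN rose, FOSL1 from 59.4 ± 53.8 to 415 ± 200 CPM and FOSL2 from 34.5 ± 18.9 to 370 ± 190 CPM, although FOSL1 and JUN overlapped between the groups. FOS, FOSB, JUNB and JUND were not called. Nor were TEAD2, TEAD3, TEAD4, YAP1, EGR1, SMAD3, SP1, NFKB1, NFKB2, RELA and RELB. ETS1 rose from 37.3 ± 3.01 to 257 ± 75.3 CPM, HIF1A from 18.5 ± 2.39 to 854 ± 352 CPM, and TEAD1, the DNA-binding partner of TAZ, from 38.7 ± 9.94 to 357 ± 47.6 CPM, while ETV4 and ETV5 fell, with log2 differences of -2.56 and -2.45.

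The genes whose levels ran most like these over the 9 tumours were found by the root-mean-square difference of log2 CPM after centring each gene on its mean, as a description only. For PLAUR they were BMP4, VGLL3 and LACTB, with differences of 0.50, 0.51 and 0.52, where the median over all genes was 2.72. For PLAT they included ZCCHC24 and SMARCD2, with 0.23 and 0.25 against a median of 1.90. For SERPINE2 they were ITGB3, SYNM and ADAM23, with 0.51, 0.57 and 0.59 against 2.09. Each of the genes named here had groups that did not overlap, in the direction of the gene it resembled, which follows largely from choosing them by likeness over these same tumours.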

How the data were processed

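Total RNA of 9 tumours was sequenced after SMART-Seq and Nextera XT library preparation, per the labels' protocols. The authors deposited 1 table of log2 CPM with a prior. HISAT2, edgeR and GRCh38 are named without roles in the submitters' processing notes. How reads were counted, with which annotation and filters, and whether mouse reads were removed is not given in the sources used here.

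Both the prior (0.145 CPM) and the value of 1 read in each library were recovered from the deposited values, and 100% of values of up to 5000 reads came out whole within 0.1 read. Genes averaging 1 CPM or more (prior included) were tested with limma 3.58.1 (R 4.3.3) on the log2 values as deposited, with robust empirical Bayes and Benjamini-Hochberg adjustment at 0.05, 6 tumours against 3. Fold changes are on the scale of log2 CPM with the prior, which understates changes of low genes.

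The genes described, the 13 other lists (plasminogen system, serpins, LY6/PLAUR family, inhibited proteases, collagen chains, collagen folding partners, regulators, and markers of myeloid cells, endothelial cells, neurons, pericytes and fibroblasts, astrocytes and glioblastoma) and the named genes were chosen with earlier results of these data known. Named genes were the 9, WWTR1, up to 4 called genes with the smallest p per list and direction, a fixed set of others, and for PLAUR, PLAT and SERPINE2 the 3 most alike. Others, such as FOSL2, JUN, ITGA3, ITGAV, MRC2 and SERPINB5, were named after their values were seen. Some genes of the lists and of the most alike are counted but not reported here. Astrocyte markers summed to 25.9 to 43.3 CPM in EV and 30.0 to 159 CPM in TAZ-4SA, with GJA1 higher. Levels per kilobase used the median length of APPRIS principal transcripts of GENCODE. Promoter sequences and gene coordinates are from RefSeq (GRCh38.p14).

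Alternatives covered the pseudocount, scaling, filter, weights, robust fitting, a replicate block, limma-voom on the recovered reads (with the authors' scaling) and leaving out tumours. Counting intervals and floors (3 reads per library) cover counting error only. No copies of a library were found.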

Additional observations from a re-analysis of the deposited data

Results flagged for a closer look

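In 8 of 52 genes examined, 1 TAZ-4SA tumour stood apart from the other 5, with a gap to its nearest neighbour, as a share of the range of log2 values over the 6, above Dixon's critical value of 0.625. Dixon's value passes about 5% of groups by chance for continuous values, which does not apply to SERPINB9, LYPD3, SERPINI1, THBD and COL2A1, where 4 or 5 of the 6 tumours had 0 reads. SERPINB8 was lowest in tumour 3 (share 0.78, 3.93 CPM). SERPINB9 was highest in tumour 5 (share 1, 0.840 CPM), where the other 5 tumours had 0 reads.

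Among the other listed genes, LYPD3 was highest in tumour 6 (share 1, 3.06 CPM), and SERPINI1 (share 1, 1.12 CPM), THBD (share 1, log2 CPM 0.627) and COL2A1 (share 0.794, 0.280 CPM) were highest in tumour 5. Tumour 2 was lowest for FOSL1 (share 0.645, 113 CPM) and for LRPAP1 (share 0.691, log2 CPM 4.10). Tumour 5 had the fewest genes at 0 reads of the TAZ-4SA tumours, 2990, and tumour 2 the most, 7365, and the part of this in the values was not tested.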

How the results depend on the processing

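PLAT, SERPINE2, SERPINH1 and SERPINB6 kept their direction and their side of the threshold under each of the 22 alternatives. A planned edgeR test on the recovered reads was run and its results were seen, but it is left out of these alternatives. In it SERPINB9 was not called, while PLAUR, PLAT, SERPINE2 and SERPINH1 were called as in limma. No value here rests on it. PLAUR was not called with the replicate block (3.31, adjusted p = 0.0623) or in limma-voom (3.86). The block matched tumours by number alone, and its log2 differences equal those of the fit with tumours 1 to 3 of each group. These are therefore not separate estimates, and in that fit PLAUR was called (limma adjusted p = 0.0310). SERPINB9 was not called after quantile normalization (-0.19) or without TAZ-4SA tumours 2, 3 and 4 (-3.20), and was not tested at a minimum of 10 CPM or without any 1 EV tumour. SERPINB8 was called with array weights (2.05), and ranged from 0.77 to 1.95 leaving out 1 tumour. SERPINB2 changed sign with the replicate block (-0.24), in limma-voom (-0.13), without TAZ-4SA tumours 2, 3 and 4 (-1.22) and with tumours 1 to 3 only (-0.24), and ranged from -0.47 to 1.03 leaving out 1 tumour. COL1A2 changed sign in limma-voom (-0.091) and without TAZ-4SA tumours 5 and 6 (-0.18) and ranged from -0.13 to 0.41 leaving out 1 tumour. PLGRKT ranged from -1.45 to 0.017 leaving out 1 tumour, and VTN changed sign with a pseudocount of 2 CPM (0.32) and after quantile normalization (1.92). The causes were not tested.

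Of the 9 genes, 2 were called higher with array weights, 0 with the replicate block and 0 in limma-voom, and 1 to 2 leaving out 1 tumour. Over all genes the count higher was 2531 with array weights, 604 with the replicate block and 773 to 1692 leaving out 1 tumour, lowest without EV replicate 2. The count lower was 3384 with no filter, 967 at a minimum of 10 CPM, 5630 with array weights, 3646 in limma-voom and 677 to 2646 leaving out 1 tumour. The lower counts without an EV tumour have fewer samples. In the plasminogen system 5 were lower at 10 CPM (4 to 10 leaving out 1 tumour), and 7 serpins were lower with no filter. In the LY6/PLAUR family 0 were higher with the replicate block and 0 in limma-voom (0 to 1 leaving out 1 tumour), and 1 was lower after quantile normalization, at 10 CPM and without TAZ-4SA tumours 2, 3 and 4, and 5 with array weights (1 to 2 leaving out 1 tumour). Of the proteases 4 were lower with no filter (1 to 3 leaving out 1 tumour). Of the collagen chains 3 were higher with the replicate block. Of the folding partners 1 was higher with the replicate block and 4 without TAZ-4SA tumours 5 and 6 (1 to 3 leaving out 1 tumour), and 1 was lower with the replicate block and 4 with tumours 1 to 3 (2 to 7 leaving out 1 tumour). Of the regulators 6 were higher with the replicate block and 6 with tumours 1 to 3, and 4 were lower with a pseudocount of 2 CPM, with array weights and without TAZ-4SA tumours 2, 3 and 4. The WWTR1 difference was 1.34 to 1.55 leaving out 1 tumour (exact permutation p = 0.07143 without an EV tumour, the smallest possible there).

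The labels link same-numbered tumours by nothing but the number. Their deviations from the group means had correlations of 0.0313, 0.00372 and -0.0471, which cannot show whether such tumours shared a batch.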
